A study of Mus musculus with 8 samples.

Results

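The genes described here control the passage of a cell from G1 into S phase. They comprised the D-type cyclins Ccnd1, Ccnd2 and Ccnd3, the kinases Cdk4 and Cdk6, the inhibitors Cdkn1a and Cdkn1b, the retinoblastoma gene Rb1, the transcription factor E2f1 and the growth regulator Mycn. They were chosen by gene symbol, and every probe carrying one of these symbols on the array was taken, which gave 10 of the 22594 genes with a known symbol and 14 of the 55681 probes. Their transcripts were measured in 8 single cells from the myocardium of the heart ventricle at embryonic day 8.5, in mouse embryos with 9 somites. Both groups carried floxed Sox17 alleles (Sox17flox/flox). The 4 WT cells came from Mesp1+/+ embryos and kept Sox17 intact, whereas the 4 KO cells came from Mesp1Cre/+ embryos, in which a Cre recombinase driven by the early mesoderm gene Mesp1 deletes Sox17 in the mesoderm and its descendants. The labels name no embryo or litter for any cell, so each genotype was 1 sample of cells, no test between genotypes was made, and every SD given is the spread between cells.

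D-type cyclins are induced by growth signals and activate the kinases CDK4 and CDK6, which phosphorylate the retinoblastoma protein and thereby release E2F transcription factors, the activators of the genes for DNA replication. The inhibitors encoded by Cdkn1a and Cdkn1b bind cyclin and kinase complexes and restrain this step, Cdkn1a being also a well-known target of p53. Myocardial cells of the early heart tube divide while they contract, and D-type cyclins, Cdk4 and N-myc, the product of Mycn, are known for their part in cardiomyocyte proliferation.

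Each array probe is a 60-base oligonucleotide, and 3 members carried several probes, so their sequences matter for what was measured. The last 30 bases of the Cdk4 and Ccnd3 probes are shown 5′ to 3′ because these probes of 1 gene are set against each other below, with positions in mouse build mm9 as the files give them. Capitals mark AATAAA, the hexamer that directs polyadenylation, which was present in 10.06% of all probes.
Cdk4 probe 1, chr10:126503162-126503221, plus strand: gagaggtatctctacctcgaggagcctttg
Cdk4 probe 2, chr10:126504174-126504233, plus strand: agtccccacctctccttacgaggttcaccc
Cdk4 probe 3, chr10:126504279-126504338, plus strand: ttttttatacaggaaaacaagacaagacaa
Ccnd3 probe A, chr17:47736267-47736326, plus strand: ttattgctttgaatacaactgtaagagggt
Ccnd3 probe B, chr4:138900307-138900366, minus strand: ctgctgccttAATAAAgatttcagAATAAA

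Cdk4 probe 1 lay 5′ of the other Cdk4 probes, and probes 2 and 3 were neighbours. Ccnd3 probe B is named as a transcript variant of Ccnd3 but placed on chromosome 4 by the files, while the gene and probe A lie on chromosome 17. The identity of its target is therefore uncertain. It held AATAAA 2 times within the bases shown. Exon and UTR annotation of build mm9 was not used here.

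The promoters of Cdk4 and Mycn are shown because these 2 genes had the lowest KO means relative to WT among the members. N-myc also binds the E-box CACGTG, 1 of the motifs searched. Ccnd3 and E2f1 had lower KO than WT means as well, and their matched windows held none of the motifs searched. RefSeq promoter windows (build GRCm38.p6, 250 bases before to 50 bases after the start) matched 7 of the 10 genes, in 9 windows. Ccnd1, Ccnd2 and Rb1 were not matched. The 250 bases before each start follow, with CACGTG in capitals in Cdk4, and with the E2F motif letters TTTCGCGC and TTTGGCGC, searched on both strands, in capitals in Mycn, where 2 of the 3 matches overlap.
Cdk4 promoter, chr10:127063285-127063534, plus strand: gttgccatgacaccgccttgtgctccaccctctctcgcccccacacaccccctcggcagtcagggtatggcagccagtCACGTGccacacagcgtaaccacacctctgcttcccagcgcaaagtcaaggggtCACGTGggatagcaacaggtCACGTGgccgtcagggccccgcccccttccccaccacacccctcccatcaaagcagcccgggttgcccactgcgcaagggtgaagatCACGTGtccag
Mycn promoter, chr12:12941837-12942086, minus strand: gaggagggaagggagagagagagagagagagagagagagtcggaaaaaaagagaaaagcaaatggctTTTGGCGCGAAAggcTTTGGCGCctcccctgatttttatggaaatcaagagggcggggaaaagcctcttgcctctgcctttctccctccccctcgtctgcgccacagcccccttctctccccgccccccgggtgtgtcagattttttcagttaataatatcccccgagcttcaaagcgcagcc

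The Cdk4 window held 4 copies of CACGTG, at positions -172, -118, -98 and -11 from the start. CACGTG was present in 7.15% of 32851 promoter windows, and 8 of them held 4 copies or more. Cdk6 was the other matched member with the motif, with 1 copy at -220. The E2F letters were present in Mycn alone among the matched members, at -183, -179 and -168, and in 0.813% of all windows. These matches describe the sequence and do not show that a factor binds there.

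The cells were first checked against their label. All 10 myocardial marker genes examined, among them Nkx2-5, Tnnt2 and Myl7, were well above background in each of the 8 cells. Endothelial markers were few, with 3 to 5 of 13 genes in a WT cell and 2 to 5 in a KO cell. By its brightest probe Kdr was well above background in each of the 8 cells, as was Plvap, and Pecam1 was in 4 WT and 2 KO cells. Over all probes, 6 genes of the list, among them Cdh5, Tek and Emcn, were detected in 0 cells. Markers of erythroid cells, endoderm, proepicardium and neural crest were detected for at most 2 genes of a list in any cell. Sox17 was not well above background in any of the 8 cells, so the deletion could not be checked on these arrays. The share of probes detected was 19.6% to 26.0% in WT and 17.1% to 24.3% in KO cells. The 4 arrays of each genotype lay on a slide of their own, and effects of slide and of genotype cannot be told apart.

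In the 8 cells, Cdk4 and Ccnd3 were detected throughout, Ccnd2 in 7 cells and Mycn in 6, whereas Ccnd1 and Cdkn1b were detected in 3 cells each, E2f1 in 2 cells and Cdk6, Cdkn1a and Rb1 in 0 cells. Detected here means a signal well above background by the scanner software's flag. Signals are array intensities, scaled between arrays on their 50th percentile. Differences are the mean over KO cells minus the mean over WT cells of log2 signal, with signals under 50 set to 50. Presence of a probe required detection in each of the 4 cells of one genotype or the other, which held for 7 of the 14 probes. Of these, 5 were detected in all 8 cells, and those of Ccnd2 and Mycn were present through the WT cells alone. None of these 7 differed by 5-fold (2.32 on the log2 scale) in either direction: 0 were lower in KO cells, where 6.88% of all 7467 present probes were, and 0 were higher, where 1.75% of all were. At the level of genes, each read by its brightest probe, 11.2% of 3221 present genes were at least 5-fold lower and 2.83% at least 5-fold higher, and 0 members were among them. No member separated the genotypes completely either: all KO cells lay under all WT cells for 2.17% and over them for 1.53% of the 5168 genes detected in at least 4 cells, and for 0 members.

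**Figure D1:**
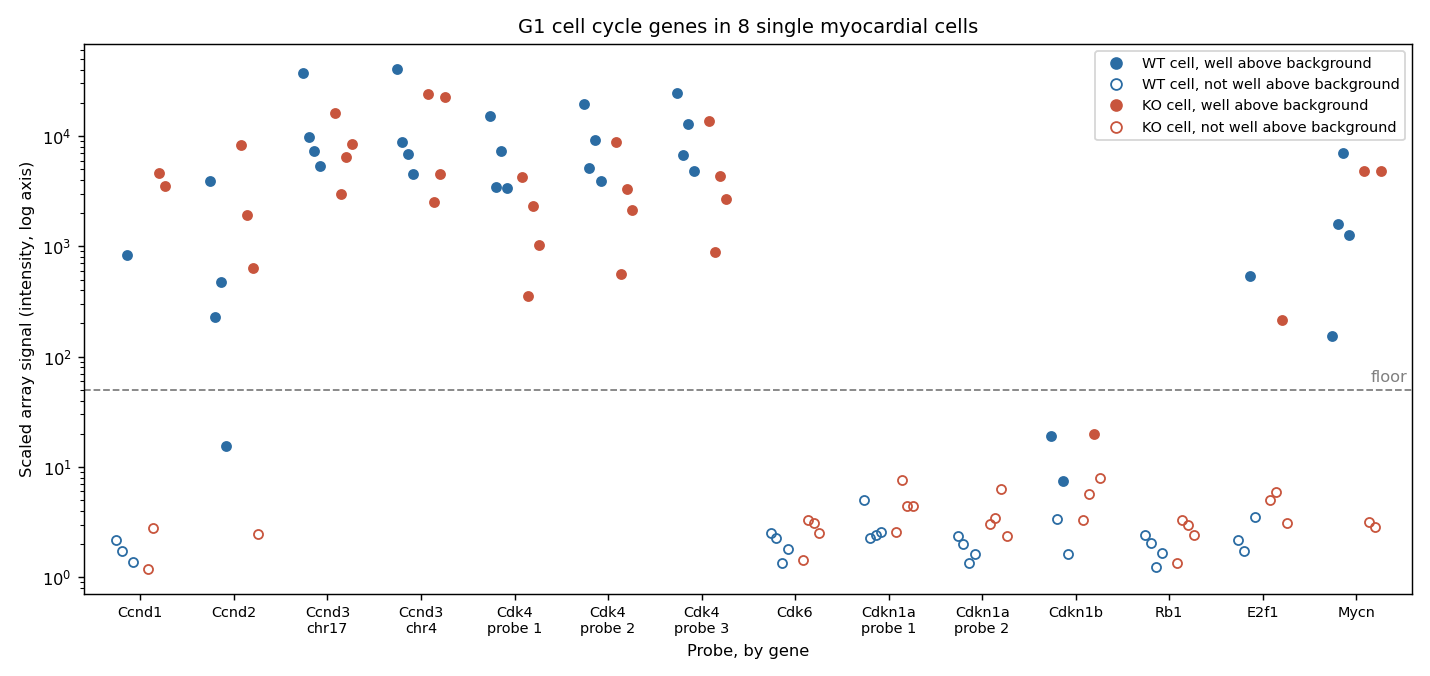
Scaled array signal (intensity, log axis) of the 14 probes of the 10 genes in each of 4 WT (blue) and 4 KO (red) cells, with filled points well above background, open points not, and a dashed line at the floor of 50. Within each probe the cells stand in the order 1 to 4, and levels of different probes are not comparable. Ccnd3 and Cdk4 were filled in all 8 cells, and Cdk6, Cdkn1a and Rb1 in 0.

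The D-type cyclins differed in the number of cells in which they were detected. Ccnd1, the D cyclin most widely induced by mitogens, was read by a probe at chr7:152116202-152116261 and had signals of 2.2, 1.7, 831.5 and 1.4 in WT cells 1 to 4, against 1.2, 2.8, 4635.7 and 3553.2 in KO cells 1 to 4. It was well above background in WT cell 3 and in KO cells 3 and 4, both of which exceeded the WT cell, while the other 5 cells were at background in both genotypes. The KO minus WT difference was 2.16 on the log2 scale, from 6.66 ± 2.03 in WT to 8.81 ± 3.67 in KO cells (mean ± SD between cells, n = 4 each). The KO SD was larger than this difference, which was 1.04 when KO cell 3 was left out and 3.22 when KO cell 1 was. Ccnd1 did not meet the presence rule.

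Ccnd2, a D cyclin detected in 7 cells, was read at chr6:127098696-127098755. Its signals were 3917.7, 226.5, 472.8 and 15.5 in WT cells 1 to 4, against 8358.9, 1907.1, 638.4 and 2.5 in KO cells 1 to 4. The genotypes overlapped, with KO cell 1 highest and WT cell 1 next. WT cell 4 was well above background but under the floor, and KO cell 4 was not well above background. The means were 8.57 ± 2.62 in WT and 9.72 ± 3.12 in KO cells, a difference of 1.15 that was smaller than either SD. Without KO cell 1 it fell to 0.05, and without KO cell 4 it was 2.51, past the 5-fold rule, so single cells decided its size.

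Ccnd3 was detected in every cell by both of its probes. At probe A on chromosome 17 the signals were 37165.9, 9834.1, 7297.2 and 5334.0 in WT cells 1 to 4, against 16226.3, 2980.4, 6515.4 and 8393.8 in KO cells 1 to 4. WT cell 1 was the brightest cell, KO cell 2 the dimmest, and the other 6 cells were interleaved between genotypes. The difference was -0.61, from 13.42 ± 1.23 in WT to 12.81 ± 1.01 in KO cells, and it was -0.02 without WT cell 1. Probe B gave 40588.8, 8750.5, 6811.4 and 4506.9 in WT cells 1 to 4, against 23938.7, 2529.3, 4564.9 and 22732.2 in KO cells 1 to 4, a difference of -0.20. This value turned to 0.47 without WT cell 1 and was -0.67 without KO cell 1. The probes followed each other over the 8 cells (Pearson r = 0.907, points sharing their array), but in KO cell 4 the ratio of probe B to probe A was 2.97 times its median over the cells.

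Across the D cyclins, every cell had at least 2 of the 3 genes well above background. WT cell 3 and KO cell 3 had all 3. In KO cell 4, which lacked a Ccnd2 signal, Ccnd1 and Ccnd3 were detected, and in each of the other 5 cells Ccnd2 and Ccnd3 were.

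Of the G1 kinases, Cdk4, the catalytic partner of the D cyclins, was detected by all 3 probes in all 8 cells and had the lowest KO mean relative to WT among the members on the floored scale (without a floor Mycn was lower). Probe 3, the brightest, gave 24752.6, 6722.9, 12893.6 and 4868.1 in WT cells 1 to 4, against 13757.6, 887.2, 4351.7 and 2686.4 in KO cells 1 to 4. KO cells 2, 3 and 4 lay below all 4 WT cells, whereas KO cell 1 exceeded WT cells 2, 3 and 4. The difference was -1.55, from 13.30 ± 1.04 in WT to 11.76 ± 1.64 in KO cells. Its size lay between the SDs of the WT and KO cells. With KO cell 1 left out it was -2.21, and with KO cell 2 left out -0.89.

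The other Cdk4 probes showed the same order of genotypes. Probe 2 gave 19531.0, 5120.4, 9181.0 and 3946.2 in WT cells 1 to 4, against 8892.1, 565.1, 3287.0 and 2121.5 in KO cells 1 to 4, a difference of -1.67. Probe 1 gave 15062.3, 3478.9, 7248.0 and 3359.5 in WT cells 1 to 4, against 4254.6, 356.5, 2345.6 and 1029.7 in KO cells 1 to 4, a difference of -2.11. At both probes KO cells 2, 3 and 4 again lay below all WT cells and KO cell 1 among them. The probes followed each other closely over the cells, with Pearson r from 0.974 to 0.997 (8 cells, sharing their arrays) and an SD of their log2 ratio of 0.13 for the neighbouring probes 2 and 3. The SD of the log2 ratio was 0.31 and 0.39 between probe 1 and probes 2 and 3. All probes were read in the same cells. The difference of probe 1, -2.11, exceeded those of probes 2 and 3, -1.67 and -1.55, in size by more than these SDs. Its size thus depended on the probe, and the cause was not tested. KO cell 2, the dimmest cell for Cdk4, was also the dimmest at both Ccnd3 probes and had 17.2% of all probes detected, and the part of this low detection in the Cdk4 difference was not tested.

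**Figure D2:**
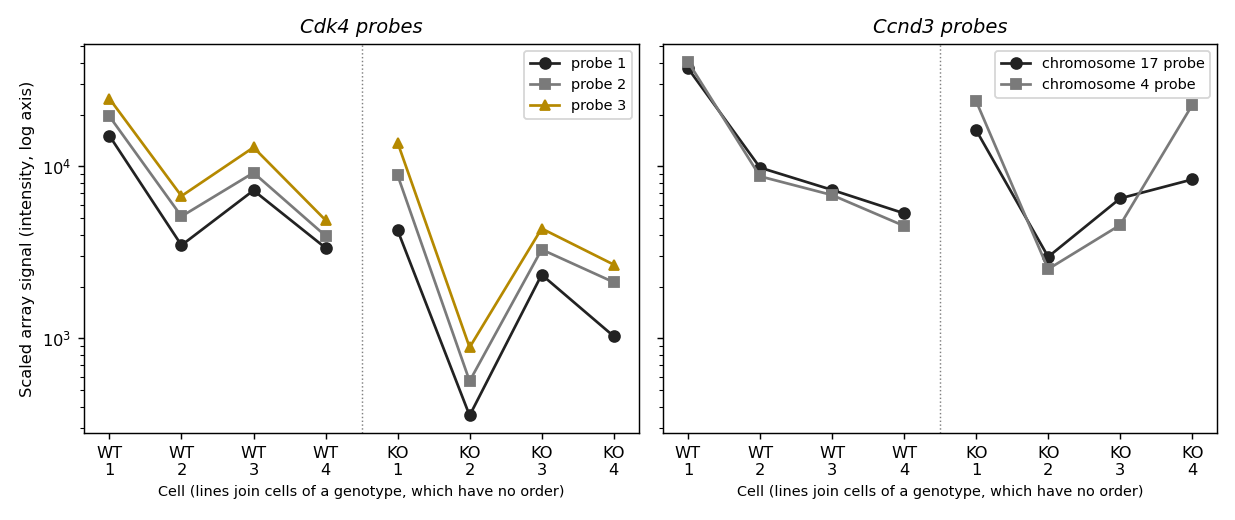
Scaled signal (intensity, log axis) of the 3 Cdk4 probes and the 2 Ccnd3 probes in WT cells 1 to 4 and KO cells 1 to 4, each line joining the cells of 1 genotype at 1 probe. The Cdk4 probes run in parallel (r from 0.974 to 0.997), while the Ccnd3 probes part in KO cell 4, at 8393.8 and 22732.2.

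Cdk6, the second partner of the D cyclins, was read by a probe at chr5:3522106-3522165 and was detected in 0 of 8 cells. Its signals of 1.3 to 3.3 were those of array background in each cell. A single probe does not tell a transcript that is absent from one that this probe fails to catch.

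The inhibitors were low or undetected. Cdkn1a was read by a probe at chr17:29237377-29237436, printed as 10 spots on each array, and by a second probe at chr17:29227986-29228045 for a transcript variant. The signals ranged from 1.3 to 6.2 at the former and from 2.2 to 7.7 at the latter, and neither probe was well above background in any cell. Under the software's weaker flag, a signal that is positive and significant, the former passed in 2 cells and the latter in 8. Cdkn1b, read at chr6:134875424-134875483, had signals of 19.2, 3.4, 7.5 and 1.6 in WT cells 1 to 4, against 3.3, 5.7, 20.03 and 7.9 in KO cells 1 to 4. It was well above background in WT cells 1 and 3 and in KO cell 3. All its signals lay under the floor of 50, so on the floored scale the cells have no order. Its difference of 0.0 was therefore set by the floor.

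Rb1, the target of the cyclin D kinases, was read by a probe at chr14:73595408-73595467 that was printed as 10 spots on each array. Its signals of 1.2 to 3.3 were at background in all 8 cells. As for Cdk6, a single probe cannot tell an absent transcript from one that it fails to catch. E2f1, the activator that the retinoblastoma protein holds in check, was read at chr2:154385798-154385857 and gave 2.2, 1.7, 533.6 and 3.5 in WT cells 1 to 4, against 5.0, 5.9, 216.2 and 3.1 in KO cells 1 to 4. It was well above background in 1 cell of each genotype, WT cell 3 and KO cell 3. The difference of -0.33 rested on these 2 cells and was smaller than the SD of either genotype, 1.71 in WT and 1.06 in KO cells. Without WT cell 3 it turned to 0.53.

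Mycn, a MYC family transcription factor of growth in embryonic tissues, was read at chr12:12943193-12943252. Its signals were 153.9, 1594.3, 7044.2 and 1269.6 in WT cells 1 to 4, against 4857.0, 3.2, 2.9 and 4859.8 in KO cells 1 to 4. All 4 WT cells were well above background. The KO cells fell apart, with KO cells 1 and 4 above all WT cells but WT cell 3 and KO cells 2 and 3 not well above background. The difference was -1.30, from 10.25 ± 2.27 in WT to 8.95 ± 3.81 in KO cells, smaller than either SD. Leaving out KO cell 4 gave -2.41, past the 5-fold rule, and leaving out KO cell 2 gave -0.20. KO cells 2 and 3 also had the lowest shares of probes detected of the 8 cells, 17.2% and 17.1%, and the part of this in their missing Mycn signal was not tested. KO cell 3 was at the same time 1 of the cells richest in detected members, with Ccnd1, E2f1 and all D cyclins.

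**Figure D3:**
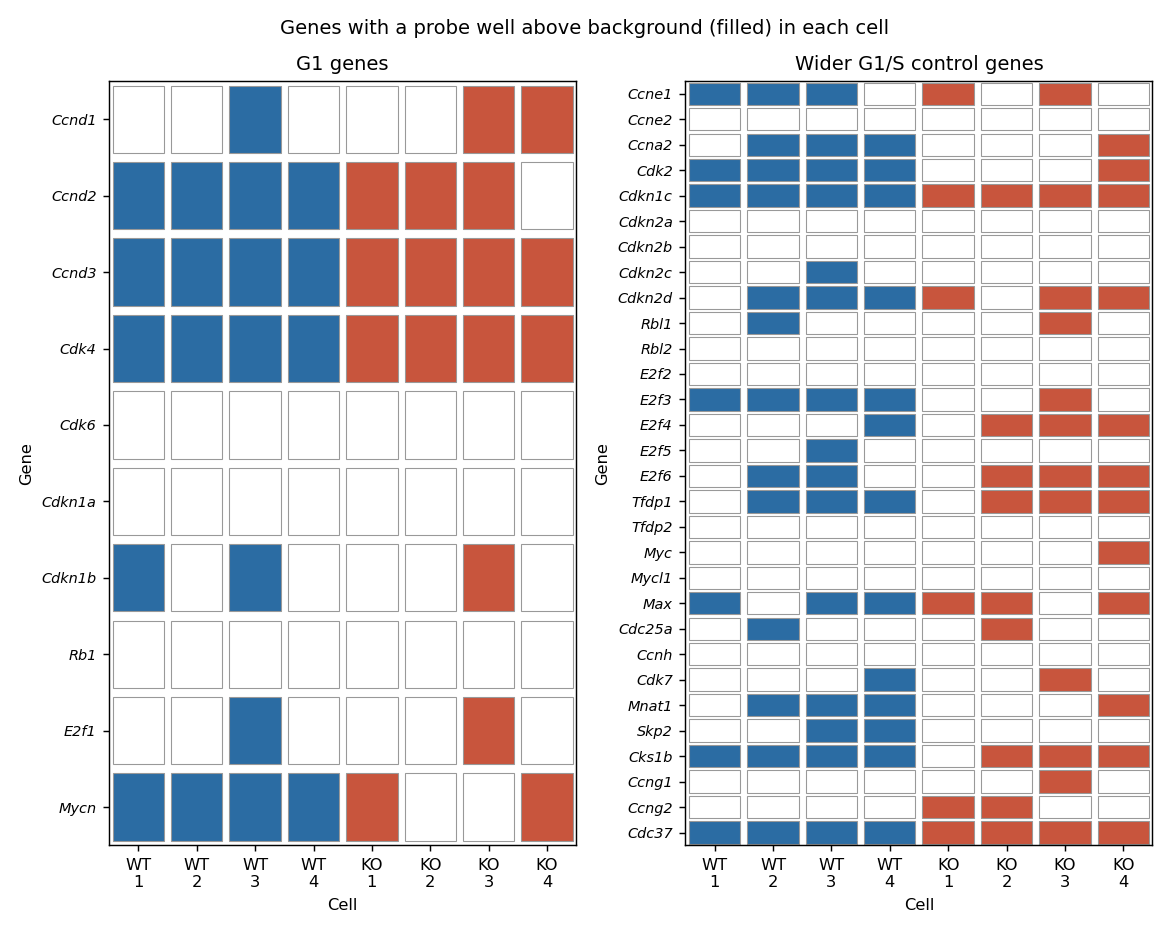
Genes with a probe well above background (filled) in WT cells 1 to 4 (blue) and KO cells 1 to 4 (red), for the 10 G1 genes on the left and 30 further genes of G1 and S phase control on the right. The G1 genes detected numbered 5, 4, 7 and 4 in the WT and 4, 3, 6 and 4 in the KO cells.

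Counted by cell, 5, 4, 7 and 4 of the 10 genes were detected in WT cells 1 to 4, against 4, 3, 6 and 4 in KO cells 1 to 4. The genotypes overlapped, with means of 5.0 ± 1.41 and 4.25 ± 1.26 and a difference of -0.75 genes. The share of all 22594 genes detected was 28.3% ± 4.20 in WT and 23.5% ± 4.19 in KO cells, a difference in the same direction. Of the 10 genes, 3 were detected in 0 cells, where 46.4% of all genes were, and 2 in all 8 cells, where 10.02% of all genes were.

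Ccnd2, Ccnd3, Cdk4 and Mycn were the 4 members detected in at least 4 cells. Their median difference was -0.75, with Cdk4, Mycn and Ccnd3 below 0 and Ccnd2 above, and the median over all 5168 genes so detected was 0.0. With KO cell 2 left out the median of the 4 was 0.10, above 0, and with KO cell 3 left out it was -0.04. These medians read Ccnd3 by its uncertain probe B. At probe A the Ccnd3 difference stayed below 0 whichever cell was left out, with its upper end at -0.02. Cdk4 and Mycn also stayed below 0, so with probe A the sign of the median would not turn. The spread between cells within a genotype differed widely among the 4 members. The pooled SD was 3.14 for Mycn and 2.88 for Ccnd2, exceeding that of 89.4% and 82.9% of these genes, whereas it was 1.37 for Cdk4 and 1.52 for Ccnd3, below the median of 1.59.

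**Figure D4:**
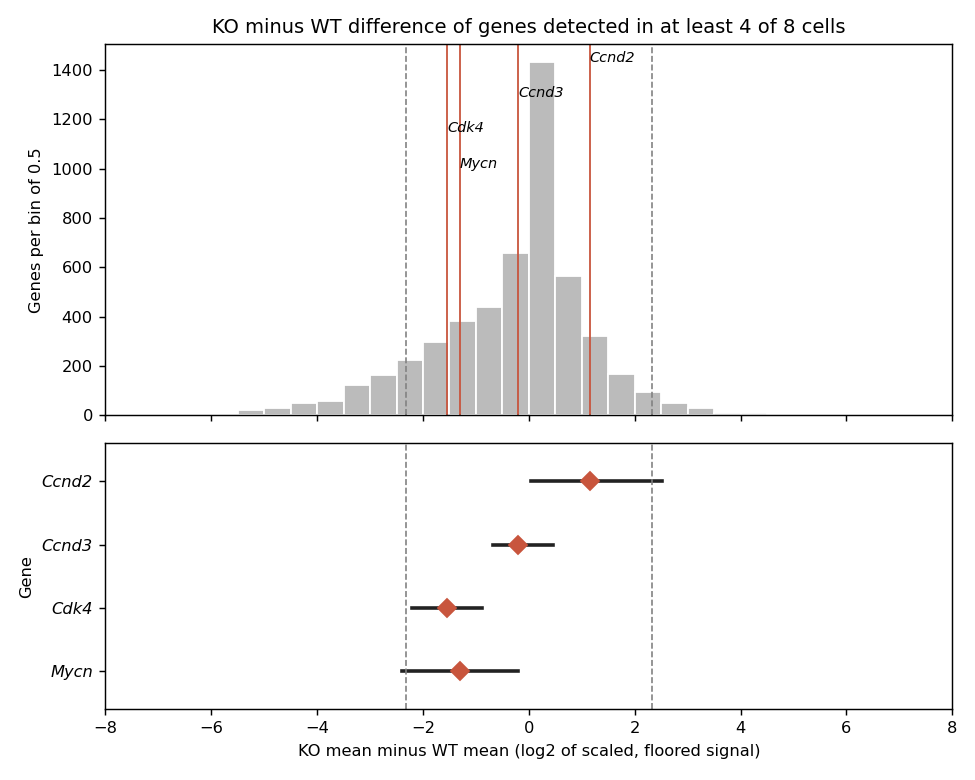
Top, histogram of the KO minus WT difference (log2 signal, floored at 50) of the 5168 genes detected in at least 4 cells, a value of 0 counted in the bin above 0, with Cdk4, Mycn, Ccnd3 and Ccnd2 marked by red lines. Bottom, the 4 differences (diamonds) with the range when each cell is left out in turn (bars), and dashed lines at 5-fold. The bars of Mycn and Ccnd2 cross the 5-fold lines, at -2.41 and 2.51, and that of Ccnd3, drawn for its uncertain probe B, crosses 0, which that of probe A, with its upper end at -0.02, does not.

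Cdk4 and Ccnd3 were above the floor in all 8 cells, so their patterns over the cells were compared with those of 1159 genes of the same kind. Among the genes most like Cdk4 were Sh3bgr (Pearson r = 0.925 over 8 cells) and Eif3l, a subunit of a translation initiation factor (r = 0.893). Those most like Ccnd3, read by its uncertain probe B, were 1700073E17Rik (r = 0.966), the ribosomal protein gene Rpl7 (r = 0.952) and Zglp1 (r = 0.924). Between Cdk4 and Ccnd3 r was 0.665. These are the highest of many values over few cells that share arrays, and they describe these cells.

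The pathway around the 10 genes was read from 4 lists. Of 30 further genes of G1 and S phase control (cyclins E and A, their kinase Cdk2, other inhibitors, pocket proteins, E2F factors and partners), 13 were detected in at least 4 cells, 6 below 0 and 7 above, with a median difference of 0.04. Those below 0 ran from -3.82 to -1.24 and those above from 0.04 to 1.02. Of the 5 present genes, 1 was at least 5-fold lower in KO cells, where 11.2% of all present genes were, and 0 were higher. It was present through the WT cells alone, as were 3 of the 5, and a filter passed in that way favours lower values in KO cells. This gene was Cks1b, a small subunit of the cyclin-dependent kinases, with a difference of -3.82 at one probe and -3.59 at the other. At the former it gave 7557.0, 6749.0, 5258.7 and 4221.0 in WT cells 1 to 4, against 1.2, 14.7, 1044.8 and 10945.5 in KO cells 1 to 4. KO cell 4 was thus the highest of all cells and the other KO cells lay below every WT cell.

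The genotypes also stood apart for Cdkn1c, an inhibitor related to Cdkn1b, which is named here after its values were seen. Its signals were 38742.3, 19179.2, 22981.6 and 22854.2 in WT cells 1 to 4, against 1438.1, 4737.7, 16190.5 and 9992.5 in KO cells 1 to 4. Every KO cell lay below every WT cell, as for 2.17% of the 5168 genes detected in at least 4 cells, with a difference of -2.12 that did not reach 5-fold. Cdk2, the partner of cyclins E and A, likewise chosen after its values were seen, was well above background in all 4 WT cells (90.5 to 489.7) but in KO cell 4 alone among KO cells (118.2), a difference of -2.13. The cyclin A gene Ccna2 and the E2F factor gene E2f3, also chosen after their values were seen, had differences of -2.34 and -1.63. Ccna2 was past 5-fold but not present, with detection in 3 WT cells and 1 KO cell. E2f3 was present through the WT cells alone, with detection in 1 KO cell. In the other direction Tfdp1, a partner of E2F factors, and Cdkn2d, an inhibitor of the cyclin D kinases, both picked in the same way, had differences of 1.02 and 0.89. Each was detected in 3 WT and 3 KO cells. Both differences were smaller than the SDs in WT and KO cells, 2.28 and 1.67 for Tfdp1 and 2.57 and 3.68 for Cdkn2d. Cdkn1c was thus detected in all 8 cells, Cdkn1b in 3 and Cdkn1a in 0.

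Genes downstream of the members were read in the same way. Of 20 E2F targets, which serve DNA replication, 15 were detected in at least 4 cells, 13 of them below 0 and 2 above, with a median of -1.04, where 47.8% of all 5168 such genes were below 0. Of 7 present, 6 of them through the WT cells alone, 3 were at least 5-fold lower in KO cells, beside 11.2% of all present genes, and 0 higher. The 3 were among those 6, so the filter had favoured them, namely Rrm2, a ribonucleotide reductase subunit (-7.84), Mcm3, a helicase subunit (-6.80), and Rfc4, a clamp loader subunit (-2.44). They were detected in 2, 1 and 2 KO cells, and the floor sets these differences in part. The E2F targets detected numbered 10, 15, 17 and 13 in WT cells 1 to 4, against 6, 9, 16 and 7 in KO cells 1 to 4, so that WT cell 3 and KO cell 3, the cells with E2f1, had the most in their genotype. WT cell 3 also had the highest share of all probes detected, 26.0%, and KO cell 3 the lowest, 17.1%, and the part of detection in these counts was not tested.

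Of 20 MYC family targets, 17 were detected in at least 4 cells, 15 below 0 and 2 above, with a median of -1.12, again beside 47.8% below 0 of all such genes. Of 12 present, 4 were at least 5-fold lower in KO cells, beside 11.2% of all present genes, and 0 higher. Nop58 and Nolc1 were present through the WT cells alone, which favours such a call, and the other 2 were detected in all 8 cells. These were the nucleolar genes Mybbp1a (-5.86), Nop58 (-4.47) and Nolc1 (-3.63) and the spermidine synthase gene Srm (-4.57). The list had 17, 17, 18 and 18 genes detected in WT cells 1 to 4, against 14, 12, 11 and 15 in KO cells 1 to 4. The counts were lowest in KO cells 2 and 3, where Mycn was not well above background. They did not follow Mycn in the other cells. WT cell 1, with a Mycn signal of 153.9, had 17, whereas KO cells 1 and 4, with 4857.0 and 4859.8, had 14 and 15. Of 20 p53 targets, Cdkn1a among them, 4 were detected in at least 4 cells. Of these 4, 3 were below 0, beside 47.8% of all such genes, and 1 was above. Their median was -1.40, the lowest of the 4 lists but over 4 genes only. Of 3 present, 2 of them through the WT cells alone, 0 were at least 5-fold lower or higher, beside 11.2% and 2.83% of all present genes. The p53 targets detected numbered 4, 5, 6 and 7 in WT cells 1 to 4, against 5, 2, 3 and 4 in KO cells 1 to 4. KO cells 2 and 3 also had the fewest of all probes detected, and its part in these counts was not tested.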

How the data were processed

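Single cells came from the ventricle of trypsin-dissociated hearts, and their cDNA was amplified by PCR. RNA transcribed from a T3 promoter that the PCR introduced was labelled (Cy3), and 1 cell was hybridised per one-colour Agilent array. Per the methods, the cell type of each cDNA was assigned by PCR of marker genes. The deposited files held linear intensity values (the background-corrected processed signal) with flags for detection and outlier spots, made by the authors with the scanner software Feature Extraction, whose version in the headers is 12.0.2.2. The authors' methods name scaling on the 50th percentile and a floor of 50.

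Control spots and outlier spots (146 to 220 per array) were dropped and 0 spots were saturated. The log2 intensity of the spots of a probe was averaged. A probe was detected when at least 50% of its spots were well above background. Each array was shifted by -0.76 to 0.68 so that the 50th percentile of the 5301 probes detected on all 8 arrays was equal, and values under 50 were then set to 50, so values at the floor have no order. The lowest signal well above background was 2.70 to 14.0 on an array. A gene was read by its brightest probe. Calls rest on size alone, at least 5-fold among present probes, and the number of arrays limits the precision.

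All 10 genes are described. From the wider lists a gene is named where it was present and at least 5-fold different, at most 4 per direction. Cdkn1c, Cdk2, Ccna2, E2f3, Tfdp1 and Cdkn2d are exceptions, named after their values were seen. For Cdk4 and Ccnd3 the 3 genes of highest Pearson r over the cells were taken, and the result for 1 of them is not reported here. Symbols were those of the array, looked up among RefSeq symbols and synonyms. The genes and lists were chosen with earlier results of these data known, and Cdk2, E2f3, Mcm3 and Rrm2 had been seen in the study's gene lists, so their counts are no independent evidence. Python 3.11.15, numpy 2.4.6, pandas 2.3.3 and matplotlib 3.10.9 were used, with R 4.3.3 and limma 3.58.1 for an alternative background correction. The calling step was tested on simulated data in which every probe was detected in every cell and cells varied less than here. That test checks the computation and not the effect of missing detection or the presence rule. Alternatives were other scalings, background corrections, floors, filters, size rules, probe choices and leaving out each cell.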

Additional observations from a re-analysis of the deposited data

Results flagged for a closer look

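Among 22 groups of 4 cells examined, 1 cell stood far from the other 3 in 3 groups. The limit used is one that chance passes in about 1 in 20 groups of freely varying values, a rate that does not apply where 3 cells are at the floor and any cell above it passes. Ccnd1 in WT cell 3 had a signal of 831.5, E2f1 in WT cell 3 of 533.6 and E2f1 in KO cell 3 of 216.2, while the other 3 cells of each group were at the floor of 50.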

How the results depend on the processing

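The count of member probes at least 5-fold lower in KO cells was 0, but 1 with scaling over all probes (Cdk4 probe 1), 1 with no floor (Mycn) and 4 with a 2-fold rule (3 Cdk4 probes and Mycn), and leaving out each cell gave 0 to 2. It was 1 (Cdk4 probe 1) without WT cell 2, WT cell 4 or KO cell 3, 1 (Mycn) without KO cell 4, and 2 (Cdk4 probe 1 and Mycn) without KO cell 1. The higher count was 0, but 1 with a 2-fold rule (Ccnd2), and leaving out each cell gave 0 to 1, with Ccnd2 called without KO cell 4. The median difference of -0.75 ranged from -1.44 without KO cell 1 to 0.10 without KO cell 2, where its sign turned, and the other settings gave -0.97 to -0.26, or 0.0 with all 10 genes. With Ccnd3 probe A, an alternative chosen after seeing the data, it was -0.96. The turn of sign without KO cell 2 rests on the uncertain probe B. With probe A, Ccnd3, Cdk4 and Mycn all stay below 0 whichever cell is left out. The difference in genes detected per cell, -0.75, lay between -1.33 (KO cell 3 left out) and -0.08 (WT cell 3 left out) and was 0.25 with positive and significant signal as detection. The signs of the Ccnd1, Ccnd2, Cdk4 and Mycn differences were the same in all 18 alternatives, though with no floor Mycn was -3.33, Ccnd1 3.42 and Ccnd2 0.49. Ccnd3 had the other sign in 4 of 18 and E2f1 in 3 of 18. The cause of these changes was not tested. The median over genes detected in at least 4 cells was 0.0 and moved to -0.14 with scaling over all probes and 0.12 with the normexp background correction; that over probes detected in all 8 cells was 0.15 and between 0.0 and 0.34 elsewhere. Over all present probes, the counts lower and higher were 514 and 131, and 403 and 189 with quantile normalization, 621 and 94 with scaling over all probes, 874 and 240 with no floor, 1216 and 854 with a 2-fold rule and 220 and 53 with a 10-fold rule. They were 860 and 208 with detection in 3 of 4 cells, 1010 and 278 with no filter, and 90 and 47 among the 5301 probes with detection in every cell, where 5 of the 7 present member probes belong. Leaving out each cell gave 500 to 919 lower (919 without WT cell 1) and 120 to 248 higher, with 248 without KO cell 2, 236 without KO cell 3 and 203 without KO cell 4. No paired analysis was possible because the replicate numbers come from the sample titles, and the labels name no embryo or litter linking a WT to a KO cell. The result comes from no test.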
